A study of Mus musculus with 21 samples.

Results

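Thio-ChIP-seq is designed to map the DNA bound by proteins that Cdk1 has just phosphorylated. Its deposited peak list holds 7924 regions, all of which are described here, out of 43713 regions in the 3 peak lists of the series. The other lists are those of the histone mark H3K79me2 in mouse embryonic stem (ES) cells, 13437 peaks after 4 days of the solvent DMSO and 22352 after 4 days of 1 µM 3-MB-PP1. The Thio-ChIP list came from 1 ChIP library and its input, and each H3K79me2 list from 1 ChIP library whose peak names give an input as the control. There was no replicate of any of them, so counts and shares below describe these libraries, and no test between conditions was made. The number of reads behind the lists is unknown.

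All 3 ChIP experiments and the 3 ES cell transcriptomes used here came from V6.5 ES cells, an established mouse line, of the genotype Cdk1as/as. In these cells both Cdk1 alleles carry an analog-sensitive form, whose active site accepts bulky nucleotides and is blocked by 3-MB-PP1. The Thio-ChIP cells are labelled as untreated, but the protocol gave them 500 nM retinoic acid together with 1 µM 3-MB-PP1 for 16 h in N2B27 medium, to gather them at G2/M. The inhibitor was then washed off, and permeabilised cells were given 0.1 mM N6-furfuryl ATPγS for 25 min before they were fixed. The H3K79me2 cells were grown without feeders, and the growth conditions stated for ES cells in general are serum and LIF on inactivated mouse fibroblasts. The peaks and the marks they are set beside therefore come from cells in different states. The 3 transcriptomes, for which no retinoic acid or 3-MB-PP1 is given, were not made from cells treated like the Thio-ChIP cells either. The protocol also describes control cells labelled without N6-furfuryl ATPγS, which are not analysed here, so the number of peaks that would be called without labelling was not tested.

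Cdk1 is the cyclin-dependent kinase that drives entry into mitosis together with cyclins A and B, and its substrates include many proteins that sit on chromatin. The furfuryl analog is meant for the engineered kinase, which leaves a thiophosphate on its substrates. The thiophosphate is alkylated and then recognised by an antibody to the thiophosphate ester. Labelling by other kinases was not tested. A peak thus marks where labelled proteins lay, without naming the protein. H3K79me2 is placed by Dot1l, the only known methyltransferase of that residue in mammals, and covers the 5′ part of transcribed genes from just behind the promoter into the gene body.

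In the 3 transcriptomes Cdk1 (ENSMUSG00000019942) was at 292, 233 and 305 FPKM, a level corrected for transcript length and sequencing depth. Ccnb1, which encodes cyclin B1, was at 119 ± 7.87 FPKM (SD, n = 3), and Dot1l (ENSMUSG00000061589) at 13.7 ± 0.802 FPKM. The labels do not say whether these 3 libraries came from separate cultures. All 8 ES cell markers examined were expressed, from 55.2 FPKM for Zfp42 to 1298 FPKM for Dppa5a, with Pou5f1, the central pluripotency factor, at 929 ± 32.1 FPKM. Of 10 fibroblast markers for carried-over feeder cells, 8 were at 1 FPKM or more. Their summed level was 305 to 334 FPKM, most of it Fn1 at 258 ± 17.4 FPKM, while Lum was listed at 0 and Dcn was at 0.158 FPKM. The part of feeder cells in the ChIP libraries was not tested.

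The Thio-ChIP regions were narrow and of similar size. Their median width was 1614 bases, and 7066 of them (89.2%) measured between 1000 and 2500 bases. The narrowest was 542 bases and the widest 7622 bases, and 10 were wider than 5000 bases. The H3K79me2 peaks were spread far more widely, with a median of 2073 bases after DMSO, a 90th percentile of 10571 bases and a widest peak of 146401 bases. In total the Thio-ChIP regions covered 13.7 Mb, or 0.536% of the 2557 Mb between the first and the last peak of the chromosomes. The DMSO H3K79me2 peaks covered 59.9 Mb and the 3-MB-PP1 peaks 132 Mb.

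The authors gave each Thio-ChIP region a whole-number score, whose scale no label or header states, and which serves below only to rank regions within this list. Scores ran from 90 to 3100 with a median of 154, and the middle 50% of regions lay between 115 and 221. Only 130 regions (1.64%) had a score of 500 or more. Wider regions had higher scores. Across the 7924 regions, which share 1 library, Spearman's rho of width and score was 0.526, and the median width went from 1352 bases in the 10% of regions with the lowest scores to 2213 bases in the 10% with the highest.

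**Figure D1:**
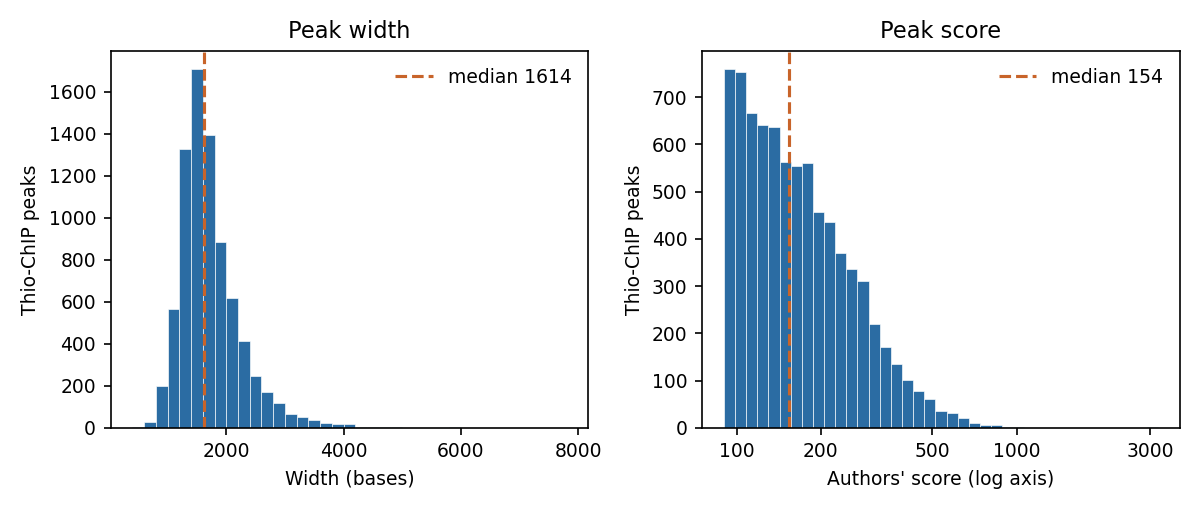
Left, number of Thio-ChIP peaks by width in bases; right, number of peaks by the authors' score on a log axis. Dashed lines mark the medians, 1614 bases and 154; widths gather around their median and run out to 7622 bases, while scores are most frequent at the lower end, 90, and thin out up to 3100.

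The region ranked first by score lay far from the mark. It was on chromosome 17 (chr17:39979444-39986339, mm9) with a score of 3100, and at 6896 bases it was also the fourth widest. As the scale of the score is not known, the size of its lead over the next score was not interpreted. No H3K79me2 peak lay near it, and the nearest edges were 1032564 bases away after DMSO and 628106 bases away after 3-MB-PP1. No genome sequence or annotation was used, so whether this place holds repeated sequence that gathers reads was not tested. The second highest score, 1060, belonged to a region of 5577 bases on the same chromosome (chr17:34254885-34260461) with its centre 4732 bases inside a DMSO H3K79me2 peak and 981 bases inside a 3-MB-PP1 peak.

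Most of the highest scores lay at H3K79me2. Of the 10 top regions, 7 overlapped a peak of both H3K79me2 lists, 1 overlapped a 3-MB-PP1 peak only, and 2 overlapped neither. The third score, 978 (chr13:55311041-55314362), had its centre 1177 bases outside a DMSO H3K79me2 peak. The fourth, 966 (chr14:63378370-63381079), lay 1451 bases outside one, and the fifth, 953 (chr10:79610140-79615126), 293 bases outside one. The next, 876 (chr19:4395950-4398795), had its centre 750 bases outside. These 4 centres thus lay beside the DMSO mark and not under it, while that of the fifth lay 89 bases inside a 3-MB-PP1 peak. The second region without the mark had a score of 866 (chr13:46058355-46061226), and its nearest DMSO edge was 705725 bases away. The 3 remaining top scores, from 816 to 812, belonged to regions on chromosomes 15, 14 and 3 whose centres lay 470 bases inside a DMSO peak, 1097 bases outside and 697 bases outside.

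The widest regions were less alike. The widest, of 7622 bases with a score of 483 (chr5:109981138-109988759), overlapped no H3K79me2 peak and lay 125441 bases from the nearest DMSO edge. The next, of 7281 bases with a score of 246 (chr5:143578569-143585849), overlapped a DMSO peak but no 3-MB-PP1 peak. The third, of 7178 bases with a score of 663 (chr15:102073239-102080416), overlapped peaks of both. Behind the chromosome 17 region described above, the fifth measured 5922 bases (chr7:29952327-29958248) and overlapped a 3-MB-PP1 peak only.

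How the regions were spread over chromosomes was set beside gene activity without coordinates, by counting genes per chromosome. In ES cells 13115 of 53796 listed genes had a mean of at least 1 FPKM, and between 12878 and 13002 in each library. Chromosome 11 had the most Thio-ChIP regions, 681, and also the most expressed genes, 1091. Chromosome 18 had the fewest of the autosomes in both, 225 regions and 312 genes. Over the 20 chromosomes Spearman's rho was 0.978 between regions and expressed genes, against 0.771 with all listed genes and 0.522 with chromosome span. It was similarly high with the number of H3K79me2 peaks, 0.964 after DMSO and 0.953 after 3-MB-PP1. Over the 19 autosomes alone, rho was 0.982 with expressed genes and 0.721 with span. The points share the sizes of the chromosomes and the Thio-ChIP library, and they are given as a description.

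Per 100 expressed genes the autosomes had 55.4 (chromosome 13) to 72.1 (chromosome 18) Thio-ChIP regions, with a median of 61.8. Per Mb they ranged over a wider scale, from 2.36 on chromosome 14 to 5.73 on chromosome 11. The X chromosome lay outside both ranges, with 104 regions, 433 expressed genes, 24.0 regions per 100 expressed genes and 0.647 regions per Mb. Chromosome 19 had the same number of expressed genes, 433, and 275 regions.

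Regions on the X were also narrower and of lower score. Their median width was 1273 bases against 1619 on the autosomes, and their median score 130 against 154, with 338 as the highest. H3K79me2 peaks per 100 expressed genes were lowest on the X in both lists as well, 68.8 against 80.2 to 130 on the autosomes after DMSO and 122 against 134 to 239 after 3-MB-PP1. The X was thus below every autosome in all 3 lists. The number of X copies in these cells was not taken into account, and its part in these counts, widths and scores was not tested. Of the X regions 24.0% overlapped a DMSO H3K79me2 peak (95% exact binomial interval 16.2% to 33.4%), against 36.2% (35.1% to 37.2%) on the autosomes. Intervals here and below are of this kind and cover counting error only.

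**Figure D2:**
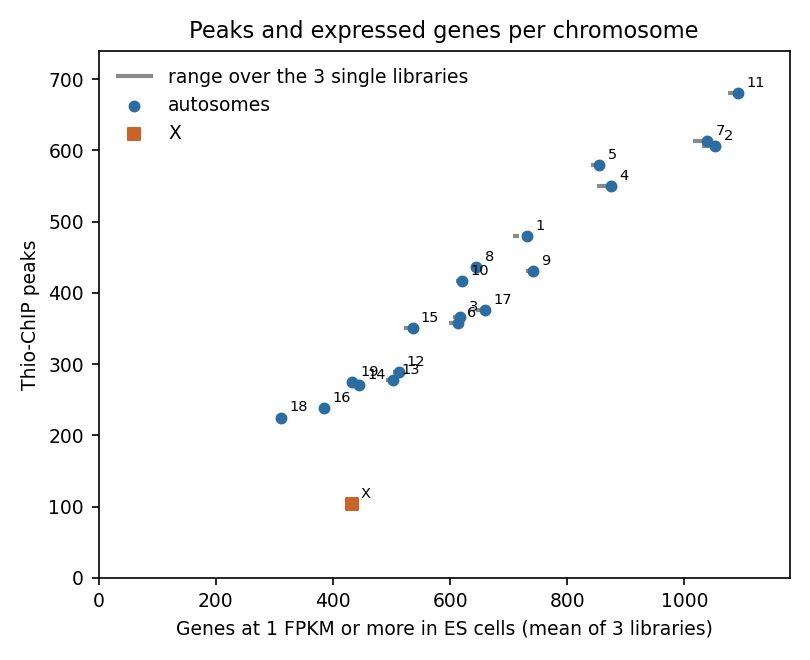
Number of Thio-ChIP peaks on each chromosome against its number of genes at 1 FPKM or more in ES cells; points use the mean of 3 libraries and horizontal bars span the counts in the 3 single libraries. Autosomes lie along 1 line from chromosome 18 (225 peaks) to chromosome 11 (681 peaks), and the X (104 peaks) lies below it.

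Along the chromosomes the regions were gathered in some stretches. Of 2575 bins of 1 Mb, 701 (27.2%) held no Thio-ChIP centre, while 169 bins (6.56%) held 10 or more and together 2448 centres (30.9%). H3K79me2 was dense in the same bins. It covered a median of 6.56% of the bins with 10 or more centres after DMSO and 0% of the bins without any, and Spearman's rho over bins was 0.777 with DMSO coverage and 0.787 with 3-MB-PP1 coverage. The bins share the libraries and were not matched for gene content. The 2 fullest were neighbours on chromosome 10 (79000001 to 81000000), with 39 and 41 centres. Of the 861 bins without any DMSO H3K79me2 peak, 290 held a Thio-ChIP centre.

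Of the 7924 regions, 2852 (36.0%, interval 34.9% to 37.1%) overlapped a DMSO H3K79me2 peak by at least 1 base, and 3522 (44.4%, 43.3% to 45.5%) overlapped a 3-MB-PP1 peak. When at least 50% of the region had to be covered, these shares were 8.57% and 18.5%. When the Thio-ChIP positions were moved by 5 kb to higher coordinates, 17.3% overlapped a DMSO peak, and after 50 kb 8.32% did, so the 2 lists are in register. Both lists were touched by 2756 regions, the DMSO list alone by 96, the 3-MB-PP1 list alone by 766, and neither by 4306 (54.3%). Seen from the mark, 21.5% of DMSO peaks and 15.9% of 3-MB-PP1 peaks overlapped a Thio-ChIP region. The longer 3-MB-PP1 list covers more than the DMSO list, and the depth of neither library is known.

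High-scoring regions were more often at the mark. Of the 10% with the lowest scores 24.9% overlapped a DMSO H3K79me2 peak, and of the 10% with the highest 55.1%, with 33.3% and 63.1% for the 3-MB-PP1 list. More than 50 kb from any DMSO peak lay 37.9% of the former and 21.1% of the latter. Regions at peaks of both lists had a median score of 176 against 143 for those at neither, with middle 50% ranges of 124 to 256 and 111 to 200 that overlap widely.

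Thio-ChIP centres were densest just outside the edges of marked domains, though most centres lay more than 1 kb from the DMSO mark. Of all centres, 2312 (29.2%, interval 28.2% to 30.2%) fell 0 to 1 kb outside a DMSO H3K79me2 peak, in a zone that makes up 0.996% of the chromosome span. Their density there was 90.8 per Mb, which was 29.3 times the mean of 3.10 per Mb. Inside the H3K79me2 peaks lay 678 centres (8.56%), at 11.3 per Mb or 3.65 times the mean.

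The density changed sharply at the boundary. It was 96.4 per Mb in the first 500 bases outside a DMSO edge, 84.5 in the next 500 and 33.3 between 1 and 1.5 kb. On the inner side it was 21.8 per Mb in the first 500 bases and 14.7 in the next 500. Beyond 5 kb from the edge inside a peak, 38 centres remained. The density there was 3.05 per Mb at 5 to 10 kb, close to the mean of the chromosomes. Far from the mark, over 50 kb from any DMSO peak, it was 1.25 per Mb, and these 2496 regions (31.5%) were spread over 78.0% of the span.

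Regions just outside an edge reached into the mark. Their centres lay a median of 461 bases outside, and 2081 of the 2312 (90.0%) overlapped a DMSO peak with their inner end. Their median width was 1647 bases, so this overlap follows largely from choosing centres within 1 kb of an edge. Pooled over peaks, the edges at lower and higher coordinate had similar numbers, with 1215 centres beside the former and 1185 beside the latter. Of these, 88 centres lay within 1 kb of H3K79me2 on both sides, that is, in a short gap between a pair of marked peaks. Coordinate order ignores strand, so the pooled counts do not show whether single peaks had centres at both ends. The last comparison below uses 5815 DMSO peaks. Among them, 1439 had a centre within 1 kb outside 1 end only, and 2 had centres beside both ends. The median score was 171 just outside the edge, 169 inside, 164 at 1 to 10 kb and 142 and 144 beyond.

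The same shape was found against the 3-MB-PP1 list, with a lower top. There 2220 centres (28.0%) lay 0 to 1 kb outside an edge at 53.0 per Mb, 17.1 times the mean, and 1456 (18.4%) lay inside at 11.0 per Mb. Of the 2312 centres just outside a DMSO edge, 1457 (63.0%) were also just outside a 3-MB-PP1 edge and 782 (33.8%) were inside a 3-MB-PP1 peak. More than 50 kb from the peaks of both lists lay 1754 regions (22.1%), with a median width of 1545 bases and a median score of 140.

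**Figure D3:**
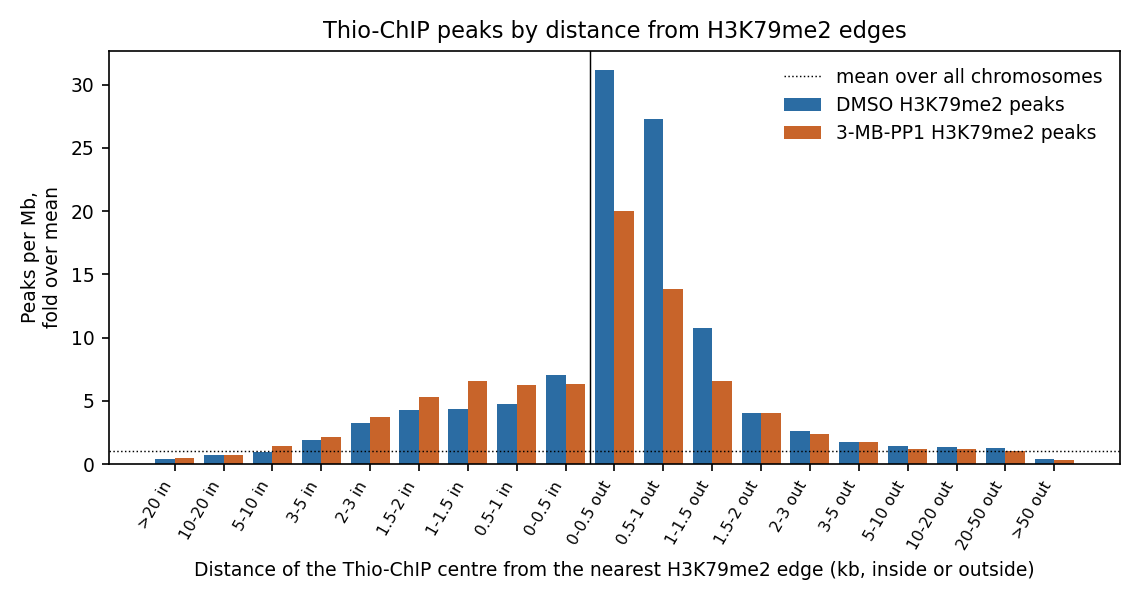
Density of Thio-ChIP centres, as fold over the mean density of the chromosomes, by distance in kb from the nearest H3K79me2 edge; the vertical line is the edge, with positions inside the mark to its left and outside to its right. In the first 0.5 kb outside a DMSO edge the density was 31.1 times the mean, against 7.05 times in the first 0.5 kb inside.

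Wide H3K79me2 peaks had a Thio-ChIP region more often than narrow ones. Among DMSO peaks of up to 1 kb 7.42% (interval 6.56% to 8.36%) overlapped one, among those of 5 to 10 kb 36.4% (34.2% to 38.7%), and among the 484 peaks over 20 kb 65.1% (60.7% to 69.3%). Wider peaks have more bases to overlap, and the shares were not corrected for length. By the authors' H3K79me2 score the share went from 3.05% in the lowest 10% to 53.9% in the highest 10%. DMSO peaks with a Thio-ChIP region had a median width of 5089 bases and a median score of 52, against 1652 bases and 22 for those without. Most overlapped a single region: 2842 peaks overlapped 1, 38 overlapped 2 and 3 overlapped 3.

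By width, the 3-MB-PP1 peaks followed the same order at lower shares. Of those up to 1 kb 2.70% overlapped a Thio-ChIP region, and of the 1467 over 20 kb 58.6% (56.0% to 61.1%). By score the share was 2.06% in the lowest 10%, 1.57% in the next 10% and 55.5% in the highest 10%.

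**Figure D4:**
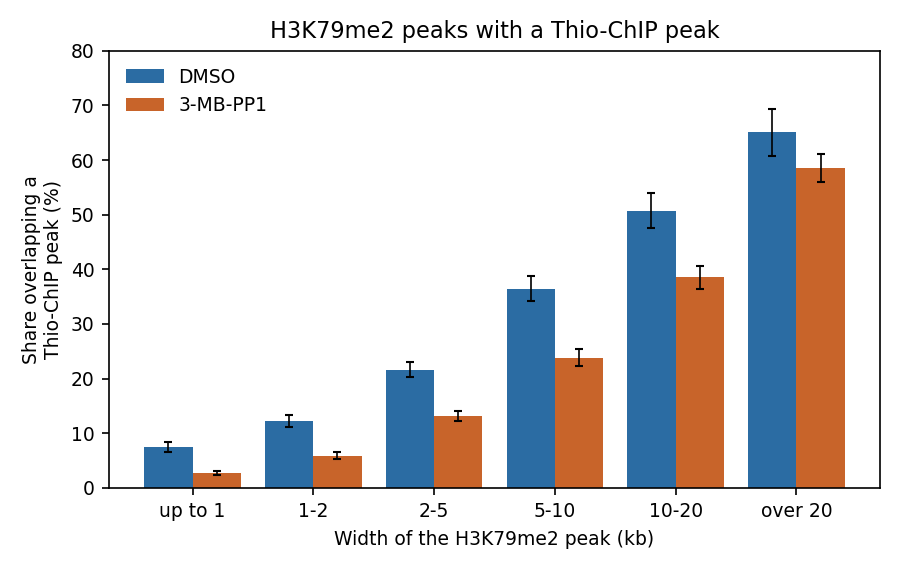
Share of H3K79me2 peaks that overlap a Thio-ChIP peak, by width of the H3K79me2 peak in kb, for the DMSO and the 3-MB-PP1 list; error bars are 95% exact binomial intervals. The share is higher in each wider class of either list, from 7.42% to 65.1% after DMSO.

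The last comparison asked where H3K79me2 peaks differed in extent between the DMSO and the 3-MB-PP1 list, in relation to the Thio-ChIP regions. It used the 5815 DMSO peaks that overlapped exactly 1 3-MB-PP1 peak, which in turn overlapped no other DMSO peak. Of their 11630 edges, 4320 (37.1%) lay at least 1 kb further out after 3-MB-PP1, and 264 lay at least 1 kb further in. This is the background for the counts that follow.

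Edges beside a Thio-ChIP centre kept their place more often. Of 1443 DMSO edges with a centre 0 to 1 kb outside, 222 (15.4%, interval 13.6% to 17.4%) lay at least 1 kb further out after 3-MB-PP1, and the median shift was 200 bases outward. At the opposite ends of the same H3K79me2 peaks, 766 of 1439 edges (53.2%, 50.6% to 55.8%) lay at least 1 kb further out, with a median of 1195 bases. The share was thus below the background of 37.1% on the Thio-ChIP side and above it on the other side. Edges of H3K79me2 peaks with no centre beside either end lay in between, at 38.1% and a median of 570 bases. With all overlapping H3K79me2 peaks, not only those matched 1 to 1, the opposite edges were nearer to the background. The shares were then 22.3% beside a centre, 68.6% at the opposite end and 62.1% over all edges. For a shift of at least 2 kb in the peaks matched 1 to 1, the shares were 5.47% beside a centre and 35.7% at the opposite end. With centres placed by the 3-MB-PP1 edge, 7.24% of edges beside a centre and 55.3% of opposite edges lay 1 kb or more further out. That placement does not count edges that moved out past a centre, so its share beside a centre is lowered by the selection itself.

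Peak by peak the 2 ends differed in the same direction in most cases. In 1022 of 1439 H3K79me2 peaks (71.0%) the end away from the Thio-ChIP region lay further out than the end beside it, and in 416 the reverse held. Their median width was 3217 bases after DMSO and 5760 bases after 3-MB-PP1, and that of peaks without a centre at either end was 1939 and 4712 bases.

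The order held in each class of DMSO width. Among peaks of up to 1 kb 9.91% of edges beside a centre and 52.9% of opposite edges lay at least 1 kb further out. Among peaks over 10 kb the shares were 21.7% and 56.6%. Each H3K79me2 list comes from 1 library of unknown depth, so an effect of 3-MB-PP1 and a difference between libraries cannot be told apart. That applies to both ends of a peak. Peaks were not joined to gene starts or strand. Whether the edge beside a centre was the promoter side of the mark, and the opposite edge the gene body side, was therefore not tested.

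**Figure D5:**
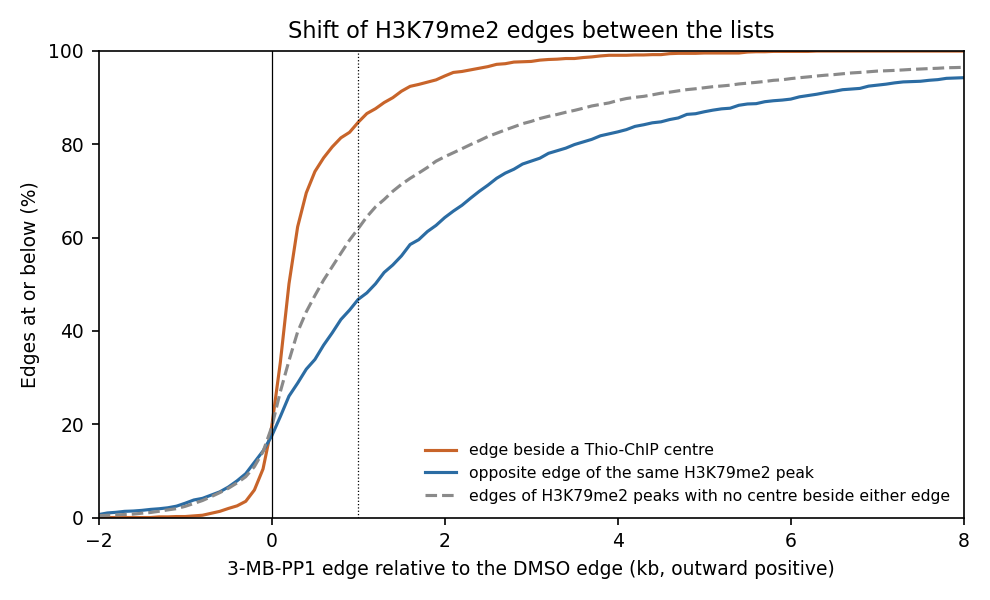
Cumulative share of H3K79me2 edges by the position of the 3-MB-PP1 edge relative to the DMSO edge, in kb with outward as positive, for peaks matched 1 to 1; the dotted line marks 1 kb. The curve of edges beside a Thio-ChIP centre rises steeply near 0 (median 200 bases), and that of the opposite edges rises slowly (median 1195 bases).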

How the data were processed

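Peak lists were deposited by the authors with a start, an end and a score per peak. Per the submitters' processing notes Bowtie, MACS 1.4.2, Bowtie2 2.2.9 and MACS2 2.1.1, and the builds mm9 and GRCm38, appear for the series without saying which was applied to which library. In the Thio-ChIP list 54 peaks on 7 of 20 chromosomes ended beyond the last gene of the GRCm38.p6 gene table, by up to 7.07 Mb on chromosome 7. Only 10.3% of peaks lay within 1 kb of a GRCm38 gene start, and 10.4% did after a shift of 50 kb. The H3K79me2 lists also passed these ends, on 7 chromosomes each. The lists were therefore read as mm9, the other build named. No gene annotation or genome of mm9 was used here and coordinates were not converted, so peaks were not joined to gene starts, single genes or sequence, and the planned comparisons of genes with a peak, Dot1l knockout included, were not run. The 12 library columns of the knockout tables were not used.

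Expression values are FPKM computed by the authors, and were used to count genes per chromosome and for marker levels. The mean of 3 libraries and a level of 1 FPKM were used.

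Positions are 1-based. Peaks overlapped when sharing at least 1 base. Distances run from a Thio-ChIP centre to the nearest H3K79me2 edge, and densities divide by the bases at that distance. Calculations used Python 3.11.15, pandas 2.3.3 and scipy 1.17.1 and were tested on simulated intervals. Peaks were named by rule, the 10 highest scores and the 5 widest. The comparisons with H3K79me2 edges and by chromosome were chosen after seeing the data, and the members and lists with earlier results of these data known.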

Additional observations from a re-analysis of the deposited data

How the results depend on the processing

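Of the alternatives run, 31 were classed as moved from the main value, 12 as the same and 0 as reversed. Counts, widths, scores and single shares have no direction that could reverse. With the 50% of Thio-ChIP peaks with the highest score, 3962 peaks remained, with a median width of 1824 bases and a median score of 221. Of these 42.9% overlapped a DMSO and 51.6% a 3-MB-PP1 H3K79me2 peak, and 33.5% had their centre 0 to 1 kb outside a DMSO edge. When at least 50% of the Thio-ChIP peak had to be covered, the overlaps were 8.57% and 18.5% against 36.0% and 44.4% at 1 base. With the higher-scoring 50% of H3K79me2 peaks they were 30.4% and 41.4%, and 23.2% of centres lay 0 to 1 kb outside a DMSO edge. The last share was 26.4% with H3K79me2 peaks joined across gaps of up to 3 kb, and 28.0% against 3-MB-PP1 edges.

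The shares of edges further out after 3-MB-PP1 are given in the order beside a centre, opposite, and all edges. They were 26.0%, 66.1% and 50.8% for a shift of 500 bases, and 5.47%, 35.7% and 22.2% for 2 kb. With all overlapping peaks they were 22.3%, 68.6% and 62.1%, and with peaks joined across 3 kb 21.0%, 64.9% and 43.8%. With the Thio-ChIP centre placed by the 3-MB-PP1 edge they were 7.24%, 55.3% and 37.1%. This placement does not count edges that moved out past a centre, so its first share is lowered by the selection itself. The opposite edge was ahead in every one of these settings.

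Spearman's rho with expressed genes was 0.973 to 0.980 without any 1 of the replicates, 0.991 at 5 FPKM and 0.771 with all listed genes. The alternatives on edges and on rho were chosen after seeing the data. No paired analysis was possible because no result comes from a test between groups that share replicate numbers. The alternatives planned for gene starts, for expression of genes with a peak and for the Dot1l knockout were not run, for the reason of builds given above.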

Other observations

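Some Thio-ChIP peaks lay in short chains. Of 7904 gaps between neighbours on a chromosome the median was 107 kb, and 700 (8.86%) were under 10 kb. With such gaps joined, 1252 peaks (15.8%) fell into 552 chains of 2 or more. The 4 longest chains had 6 peaks each. That on chromosome 10 (chr10:79593534-79631539, mm9) held the score of 953 named above, and 4 of its 6 peaks overlapped a DMSO and 4 a 3-MB-PP1 H3K79me2 peak. A chain of 35.0 kb on chromosome 6 (chr6:52107564-52142585) had scores from 93 to 532 and overlapped no H3K79me2 peak of either list. The chain on chromosome 15 (chr15:98607991-98638470), with scores from 99 to 228, overlapped none either. On chromosome 7 (chr7:30065726-30104575) 1 of the 6 overlapped a DMSO peak and 4 a 3-MB-PP1 peak.

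The X chromosome also held the longest stretches without a Thio-ChIP peak. Of 26 gaps over 5 Mb in the list, 7 were on the X, whose copy number was not taken into account. The longest measured 21.6 Mb (chrX:108577653-130221732) and held 5 DMSO and 14 3-MB-PP1 H3K79me2 peaks. The next, of 12.9 Mb (chrX:20498932-33428115), held 1 and 26. On chromosome 2 a gap of 8.04 Mb (chr2:94247235-102290772) held 22 DMSO and 29 3-MB-PP1 peaks, so H3K79me2 was found there without a Thio-ChIP peak.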
